A study of Mus musculus with 8 samples.

Results

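The genes described here are 48 genes that mark macrophages and other leukocytes, 48 of the 51822 gene symbols in the deposited tables. They were chosen by name, from leukocyte genes that were lower with locamidazole (LAMZ) than in control culture and mostly higher at day 14 than at day 7 in control culture. Those contrasts are therefore described for the 48 genes without p-values, and calls of the fit over all genes are given there as counts. RNA was sequenced from mouse osteoblast progenitors in 8 libraries, 2 in each of 4 groups, which were control culture (DMSO, the vehicle) and culture with LAMZ at 1 μmol·L−1, harvested on day 7 or on day 14. All 4 groups were kept in osteogenic medium with serum, ascorbic acid, dexamethasone and β-glycerophosphate. LAMZ is an aminoindazole-derived compound that was selected for promoting myotube and osteoblast differentiation. The sample labels name MC3T3-E1 cells, a clonal osteoblastic line from mouse calvaria, whereas the methods for the sequencing name cultured calvarial cells, which are digested from the skull and are not one cell type. The age and strain of a donor animal are not given in the labels, and the labels do not say whether the libraries of a group came from separate cultures, so p-values measure the spread between these libraries only.

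Macrophages are phagocytes that live in most tissues, bone included, and depend on colony-stimulating factor 1 (CSF1) or interleukin 34 acting through their shared receptor, CSF1R. They secrete lysozyme and complement C1q, carry scavenger and Fc receptors that signal through the adaptors FcRγ and DAP12, rely on the transcription factor PU.1 for their identity, and use a membrane oxidase to make superoxide. The 48 genes were grouped by these roles as 11 secreted or lysosomal proteins, 19 surface receptors and antigens, 12 signalling or cytoskeletal proteins, 3 transcription factors and 3 oxidase subunits.

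The stretches before the RefSeq start are shown for 7 of the genes, to set the genes without a read in any LAMZ library (C1qb, C1qc and Mpeg1) beside those that kept reads there (Lyz2, Arhgdib, Plek and Ncf1). They are RefSeq sequences on GRCm38.p6, written 5′ to 3′ on the strand of the gene and cut back before the first annotated exon base. For Arhgdib and Plek this start lies inside the span that GENCODE annotates for the gene, which reaches further upstream to 136941899 on chr6 and 17052381 on chr11. They lie at chr4:136886201-136886450 (C1qb, minus strand), chr4:136893066-136893164 (C1qc, minus), chr19:12460520-12460769 (Mpeg1, plus), chr10:117282322-117282522 (Lyz2, minus), chr6:136939592-136939777 (Arhgdib, minus), chr11:17008719-17008968 (Plek, minus) and chr5:134229626-134229875 (Ncf1, minus). Capitals mark GAGGAA, the core bound by PU.1, or its reverse complement TTCCTC.
C1qb: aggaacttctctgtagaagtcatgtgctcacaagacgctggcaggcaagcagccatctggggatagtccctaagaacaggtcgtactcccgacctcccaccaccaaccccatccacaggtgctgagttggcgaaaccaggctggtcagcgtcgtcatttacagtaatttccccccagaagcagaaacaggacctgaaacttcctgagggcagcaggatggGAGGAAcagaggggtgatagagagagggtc
C1qc: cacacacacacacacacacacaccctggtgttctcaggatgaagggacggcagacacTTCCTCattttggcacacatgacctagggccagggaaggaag
Mpeg1: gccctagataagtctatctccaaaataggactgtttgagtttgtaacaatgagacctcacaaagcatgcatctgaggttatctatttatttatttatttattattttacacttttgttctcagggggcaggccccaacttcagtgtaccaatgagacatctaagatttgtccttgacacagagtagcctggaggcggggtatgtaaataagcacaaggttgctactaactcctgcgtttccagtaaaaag
Lyz2: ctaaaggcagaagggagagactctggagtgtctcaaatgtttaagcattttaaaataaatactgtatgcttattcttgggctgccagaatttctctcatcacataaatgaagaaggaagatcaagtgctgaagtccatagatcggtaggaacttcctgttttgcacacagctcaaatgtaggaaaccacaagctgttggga
Arhgdib: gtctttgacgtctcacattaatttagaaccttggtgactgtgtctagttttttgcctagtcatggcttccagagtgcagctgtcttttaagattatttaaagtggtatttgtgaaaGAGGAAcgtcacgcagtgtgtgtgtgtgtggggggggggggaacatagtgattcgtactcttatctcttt
Plek: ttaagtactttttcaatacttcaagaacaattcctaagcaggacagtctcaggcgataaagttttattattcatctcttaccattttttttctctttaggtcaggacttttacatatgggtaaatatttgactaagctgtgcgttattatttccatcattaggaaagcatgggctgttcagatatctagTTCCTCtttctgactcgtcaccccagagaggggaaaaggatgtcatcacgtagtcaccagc
Ncf1: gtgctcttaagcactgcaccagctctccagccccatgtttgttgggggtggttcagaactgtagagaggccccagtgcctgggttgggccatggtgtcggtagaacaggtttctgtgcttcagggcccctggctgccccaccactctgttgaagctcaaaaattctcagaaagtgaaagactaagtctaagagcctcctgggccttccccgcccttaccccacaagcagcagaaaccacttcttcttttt

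The letters GAGGAA, searched on both strands of the 250 bases before the start, were found in 16 of the 38 genes with a RefSeq window (42.1%), beside 6231 of 27025 windows of all genes (23.1%). The longer form GAGGAAGT, which contains GAGGAA, was found in 4 of the 38 (10.5%) and in 2.5% of all windows. TGTGGT, bound by RUNX factors, was found in 9 (23.7%, beside 14.2%), TTGCNNAA, bound by C/EBP factors, in 4 (10.5%, beside 9.5%), and TATAAA in 3 (7.9%, beside 12.9%). Among the genes without a read under LAMZ, 5 of the 7 with a window held GAGGAA (C1qb, C1qc, Laptm5, Fcgr1 and Fcgr4, but not Mpeg1 or Cd48). Among the 5 genes with more than 20 reads under LAMZ at both days, Plek and Arhgdib held it and Lyz2, F13a1 and Ncf1 did not. These are matches of letters and not measured binding sites.

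Levels are in RPKM, the reads of a gene scaled to its length and to the mapped reads of its library. The libraries held 3463536 to 5832100 mapped reads by a recovery from the RPKM values. Osteoblast markers were abundant in all 8 libraries, with summed RPKM over 8 markers from 7171 to 18124. Markers of other blood cells were near 0 throughout. Their summed RPKM was at most 1.24 for 10 neutrophil markers, 2.45 for 10 T cell markers, 0.256 for 6 NK cell markers, 0.663 for 6 mast cell markers and 1.68 for 7 erythroid markers. Markers of dendritic cells (0.684 to 3.83 over 6 markers), B cells (1.82 to 11.1 over 8) and megakaryocytes (0.943 to 3.39 over 7) were low. Markers of endothelial cells summed to 2.36 to 3.68 in control and 1.04 to 1.20 in LAMZ libraries. Those of osteoclasts, a macrophage-related lineage, summed to 101 to 124 in control and 109 to 146 in LAMZ libraries. Only 5 of the 10 osteoclast markers reached an RPKM of 1 in 2 libraries, so this sum rests on few genes and does not show that osteoclasts were present. Osteoblast markers thus were present as labelled, and macrophage genes were measured beside them.

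The summed level of the 48 genes was high in control culture, higher at day 14, and low under LAMZ on both days. In day 7 control libraries it was 596 and 768 RPKM, in day 7 LAMZ libraries 43.8 and 43.3, in day 14 control libraries 1422 and 1456, and in day 14 LAMZ libraries 32.1 and 29.2. All control libraries lay above all LAMZ libraries, and the control days did not overlap. The mean sum under LAMZ was 6.38% of control at day 7 and 2.13% at day 14, and control culture held 2.11 times as much at day 14 as at day 7. In reads, the 48 genes had 3599 and 4314 in day 7 control libraries and 13060 and 10673 at day 14, beside 310 to 449 in the 4 LAMZ libraries. In bulk RNA, fewer cells of a type and less RNA per cell cannot be told apart.

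**Figure D1:**
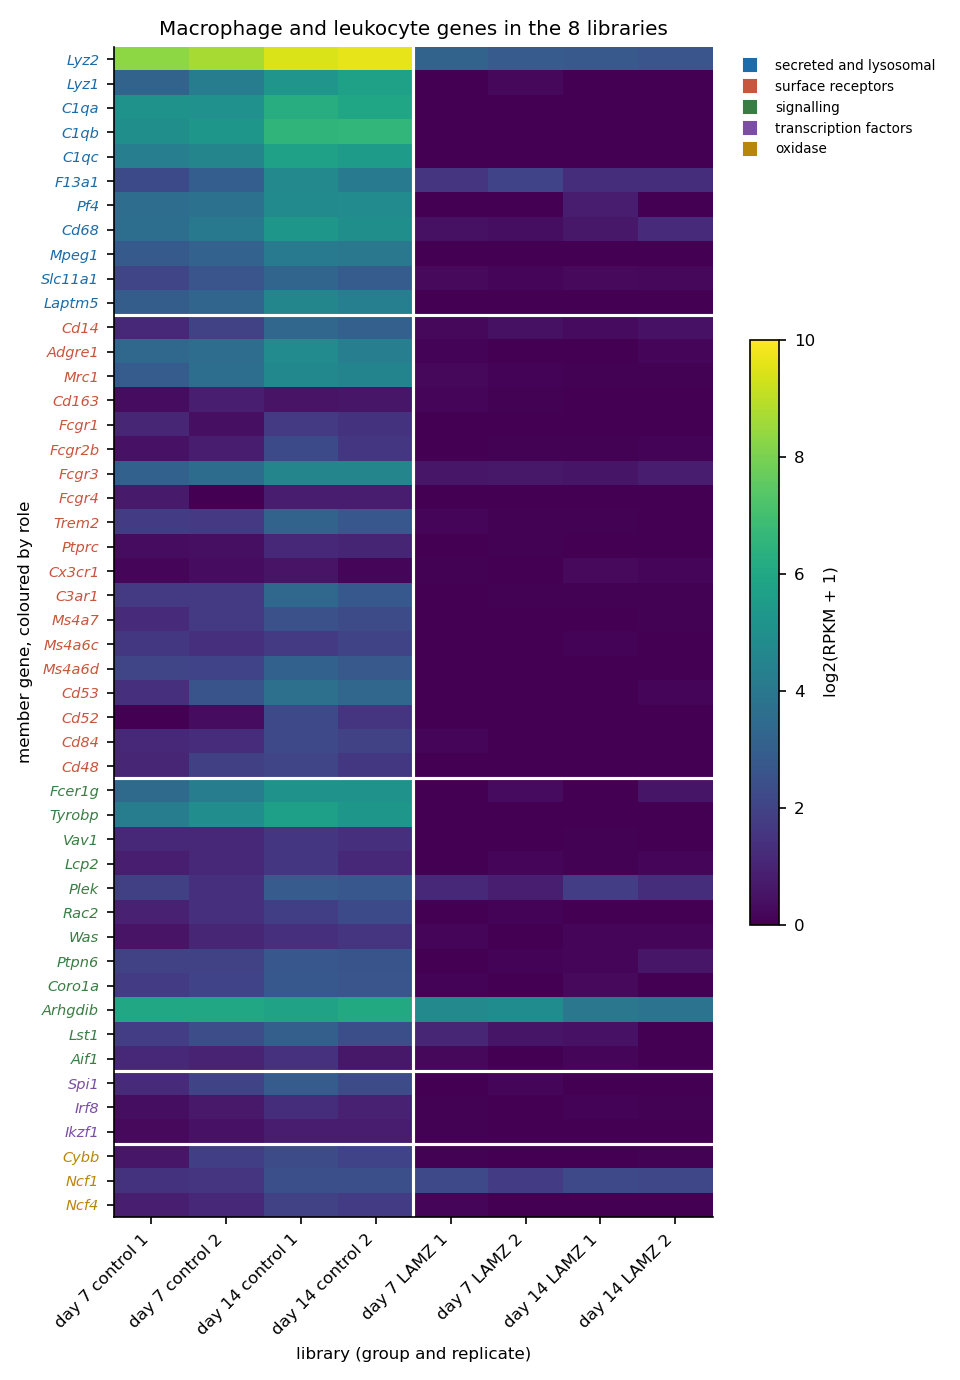
Heatmap of the 48 genes (rows, grouped by role) in the 8 libraries (columns, control on the left and LAMZ on the right), coloured by log2(RPKM + 1). The control columns are brighter at day 14 than at day 7 for most genes, whereas the LAMZ columns are dark except for Lyz2, F13a1, Plek, Arhgdib and Ncf1, with fainter traces of Cd68, Fcgr3 and Lst1.

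The largest share of the sum was that of Lyz2 in control libraries and of Arhgdib in LAMZ libraries. Lyz2 made up 48.8% to 54.2% of it in control libraries and 14.5% to 18.7% in LAMZ libraries, and Arhgdib 3.74% to 10.2% in control and 45.2% to 64.6% in LAMZ libraries. Without Lyz2 and Arhgdib the LAMZ sum was 3.68% of control at day 7 and 1.74% at day 14. When F13a1, Plek and Ncf1 were left out as well, the other 43 genes kept 1.26% and 0.667%. By role, secreted and lysosomal genes kept 2.02% at day 7 and 0.765% at day 14, and surface receptors 2.40% and 1.07%. Signalling genes kept 25.4% and 10.1%, transcription factors 3.61% and 0.708%, and oxidase subunits 70.5% and 33.2%. The signalling and oxidase values each rest mostly on 1 gene. Under LAMZ, Arhgdib was 26.7 of 28.9 RPKM of the signalling sum at day 7 and 13.9 of 17.1 at day 14. Ncf1 was 2.97 of 3.05 RPKM of the oxidase sum at day 7 and 3.53 of 3.55 at day 14.

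**Figure D2:**
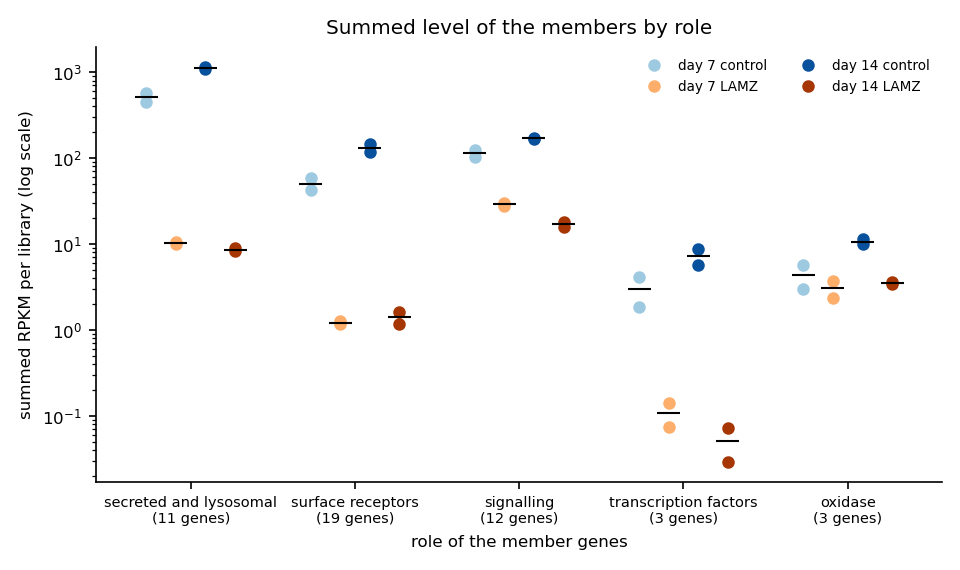
Summed RPKM of the genes of each role (log axis) in the 4 groups, with points for libraries and bars for group means. Secreted genes, receptors and transcription factors separate control from LAMZ most widely. The oxidase sums lie closest together, at 3.03 and 5.62 in control and 3.74 and 2.36 in LAMZ libraries at day 7. In LAMZ libraries most of the oxidase sum is Ncf1, and most of the signalling sum is Arhgdib.

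Secreted and lysosomal genes included the highest levels. Lyz2, which encodes the lysozyme of macrophages (chr10:117277331-117282321 on GRCm38), stood at 312 and 409 RPKM in day 7 control libraries, 8.20 and 6.27 in day 7 LAMZ libraries, 695 and 789 in day 14 control libraries and 5.99 and 5.29 in day 14 LAMZ libraries. With 80 reads or more per LAMZ group, its residual level was well counted, at 2.01% of control at day 7 (95% counting interval 1.60% to 2.46%) and 0.761% at day 14 (0.609% to 0.958%). Its neighbour and paralogue Lyz1, known from intestinal Paneth cells, was at 8.19 and 17.1, 0 and 0.152, 36.0 and 51.5, and 0 and 0 RPKM in the same order. The LAMZ level of Lyz1 at day 14 was at least 97.9-fold lower, taking 3 reads in a library as the floor. Lyz2 and Lyz1 share 195 stretches of 50 bases, 15.4% and 16.1% of each transcript, so reads could be split between them.

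The 3 chains of C1q, the recognition part of the classical complement pathway, lie next to each other on chr4 and had no read in any LAMZ library. C1qa was at 33.9 and 31.9 RPKM in day 7 control libraries and 74.0 and 59.1 at day 14. C1qb was at 30.7 and 37.7, then 91.2 and 97.4. C1qc was at 18.4 and 22.4, then 51.8 and 44.2. The floor of 3 reads in a library for C1qb is 0.588 RPKM at day 7 and 0.519 at day 14, and the LAMZ level of C1qc was at least 61.6-fold lower at day 7 and 164-fold lower at day 14. Within control libraries C1qc was at 0.454 to 0.599 of C1qb, and C1qa was at 0.607 to 1.10 of C1qb.

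The remaining secreted and lysosomal genes split into those without reads under LAMZ and those with a residue. Mpeg1, a pore-forming protein of macrophages, and Laptm5, a lysosomal membrane protein of blood cells, had no read in any LAMZ library and were at least 47.4-fold and 45.2-fold lower at day 7 and at least 123-fold and 141-fold lower at day 14. Pf4, a chemokine also stored in platelets, Cd68, a lysosomal glycoprotein, and Slc11a1, a metal transporter of the phagosome, had 0 to 8 reads in a LAMZ library. For Cd68, the residue was 2.51% (0.671% to 6.57%) at day 7 and 2.70% (1.32% to 4.55%) at day 14.

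F13a1, the catalytic chain of coagulation factor XIII, differed from the others of this role at day 7. It was at 3.71 and 6.98 RPKM in control and 1.91 and 3.08 in LAMZ libraries at day 7, and at 25 and 16.8 in control and 1.48 and 1.46 in LAMZ libraries at day 14. LAMZ libraries were below control libraries on both days. The residue was 46.6% (37.0% to 62.9%) at day 7 and 7.03% (5.26% to 8.96%) at day 14, with control culture 3.91 times higher at day 14 than at day 7.

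Surface receptors were lower in level than the secreted genes and mostly had few reads under LAMZ. Adgre1, the F4/80 antigen, was at 9.24 and 11 RPKM in day 7 control, 0.0723 and 0 in day 7 LAMZ, 27.2 and 18.4 in day 14 control and 0 and 0.126 in day 14 LAMZ libraries. Mrc1, the mannose receptor, was at 6.49 and 11.2, 0.147 and 0.0603, 24.5 and 21.9, and 0.0538 and 0.0321. Neither gene overlapped between control and LAMZ, and Mrc1 kept 1.17% (0.414% to 2.49%) at day 7 and 0.185% (0.0388% to 0.552%) at day 14.

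Fc receptors bind the constant part of antibodies. Fcgr3, the low-affinity activating receptor, was at 7.64 and 10.5 RPKM in day 7 control, 0.540 and 0.553 in day 7 LAMZ, 22.6 and 22.3 in day 14 control and 0.494 and 0.708 in day 14 LAMZ libraries. It kept the clearest residue of the receptors, 6.03% (2.71% to 12%) at day 7 and 2.67% (1.30% to 4.76%) at day 14, on 4 to 6 reads in a LAMZ library. The inhibitory receptor Fcgr2b shares 166 stretches of 50 bases with Fcgr3 and had 0 to 2 reads in a LAMZ library. Fcgr1, the high-affinity receptor, and Fcgr4 had none, though Fcgr4 had only 3 and 0 reads in day 7 control libraries, which allows no fold there.

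Of the other receptors, Cd53, a leukocyte tetraspanin, was at 1.52 and 4.97 RPKM in day 7 control, 0 and 0 in day 7 LAMZ, 11.8 and 8.89 in day 14 control and 0 and 0.118 in day 14 LAMZ libraries. Cd14, the co-receptor for lipopolysaccharide, was at 1.18 and 2.94, 0.149 and 0.366, 8.88 and 7.46, and 0.218 and 0.391. C3ar1, the receptor for complement C3a, was at 2.22 and 2.21, 0 and 0.0446, 9.52 and 5.81, and 0.0398 and 0.0476. In each of these genes both LAMZ libraries lay below both control libraries of the day.

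Low receptors set the limit of what could be counted. Cd48, an adhesion ligand of the SLAM family, was at 1.12 and 2.67 RPKM in day 7 control and 3.29 and 2.05 in day 14 control libraries, which overlapped, and had no read under LAMZ. Cx3cr1, the fractalkine receptor, was the one gene whose LAMZ and control libraries overlapped at day 14, at 0.455 and 0.0982 RPKM in control and 0.190 and 0.0909 in LAMZ libraries, on at most 11 reads. Cd52 had 0 and 1 read in day 7 control libraries. Trem2, Ptprc (CD45), Cd84, Ms4a7, Ms4a6c, Ms4a6d and Cd163 had at most 3 reads in a LAMZ library, and Ms4a6c shares 51.4% of its 50-base stretches with other annotated genes.

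Among signalling genes, both adaptors of the receptors were near 0 under LAMZ. Tyrobp, which encodes DAP12, was at 17.5 and 28.6 RPKM in day 7 control and 49.1 and 37.8 in day 14 control libraries, with no read in any LAMZ library, at least 24.0-fold and 51.4-fold lower. Fcer1g, which encodes FcRγ, was at 10.0 and 17.5 in day 7 control, 0 and 0.220 in day 7 LAMZ, 33.7 and 34.2 in day 14 control and 0 and 0.469 in day 14 LAMZ libraries. Vav1, Lcp2, Rac2, Was, Ptpn6, Coro1a, Lst1 and Aif1 carry signals to or shape the actin skeleton of leukocytes, or restrain those signals (Ptpn6), and had 0 to 7 reads in a LAMZ library. Aif1, an actin-binding protein also called IBA1, had 5 and 7 reads in day 7 control libraries at 0.942 and 1.21 RPKM, 0.153 and 0 RPKM in day 7 LAMZ, 1.70 and 0.578 in day 14 control and 0.112 and 0 in day 14 LAMZ libraries. Its LAMZ libraries lay below the control libraries on both days, and its control libraries overlapped between days.

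Arhgdib and Plek stood apart from the other signalling genes by what was left under LAMZ. Arhgdib, an inhibitor of small GTPases that is abundant in blood cells (chr6:136923655-136941899), was at 60.7 and 60.9 RPKM in day 7 control, 25.4 and 28.0 in day 7 LAMZ, 53.1 and 67.0 in day 14 control and 14.7 and 13.2 in day 14 LAMZ libraries. Its residue was 43.9% (39.1% to 49.7%) at day 7 and 23.2% (20.4% to 27.0%) at day 14. Plek, a substrate of protein kinase C in platelets and leukocytes, was at 2.72 and 1.61, 1.15 and 0.813, 6.27 and 5.52, and 2.52 and 1.51, which left 45.3% (29.3% to 65.7%) and 34.2% (27.3% to 43.9%). LAMZ lay below control in both genes on both days. Plek overlaps Cnrip1 on the opposite strand by 3.41% of its 50-base stretches, and Cnrip1 was at 3.05 to 5.58 RPKM in all 8 libraries. Whether the counting used strand is not given in the sources used here.

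The transcription factors were low throughout. Spi1, which encodes PU.1, was at 1.38 and 3.11 RPKM in day 7 control, 0 and 0.142 in day 7 LAMZ, 6.5 and 4.02 in day 14 control and 0 and 0 in day 14 LAMZ libraries. It was at least 25.1-fold lower at day 14, where no read was counted under LAMZ. Irf8, a partner of PU.1 in monocytes, was at 0.301 and 0.614, 0.0332 and 0, 1.5 and 0.909, and 0.0729 and 0.0290 RPKM. Ikzf1, which encodes the lymphoid and myeloid factor Ikaros, was at 0.184 and 0.400, 0.0406 and 0, 0.741 and 0.728, and 0 and 0. In all 3 genes LAMZ lay below control and day 14 control lay above day 7 control, and neither Irf8 nor Ikzf1 reached the level set for the test below.

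The oxidase subunits differed from each other. Cybb, the catalytic gp91phox subunit, was at 0.502 and 2.58 RPKM in day 7 control, 0.0404 and 0 in day 7 LAMZ, 4.01 and 3.05 in day 14 control and 0 and 0.0353 in day 14 LAMZ libraries. Ncf4, the regulatory p40phox subunit, was at 0.787 and 1.14, 0.116 and 0, 2.95 and 2.41, and 0 and 0. Both were at or near 0 under LAMZ, with Cybb at 1.31% (0.0302% to 7.00%) at day 7 and 0.50% (0.0113% to 2.54%) at day 14.

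Ncf1, the organizer subunit p47phox (chr5:134220053-134229625), was the one gene that was higher under LAMZ at day 7. It was at 1.74 and 1.89 RPKM in day 7 control, 3.58 and 2.36 in day 7 LAMZ, 4.47 and 4.47 in day 14 control and 3.65 and 3.41 in day 14 LAMZ libraries. LAMZ was 164% of control at day 7 (113% to 232%), with no overlap, and 79.0% at day 14 (62.7% to 99.97%), again with no overlap. These intervals cover counting error only, and Ncf1 was called on neither day in the fit over all genes. Between 45 and 78 reads were counted in each LAMZ library. In 7.45% of its 50-base stretches Ncf1 matches other genes, for the most part Gtf2ird2, which lies on the opposite strand and was at 0.884 to 1.66 RPKM in all 8 libraries.

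**Figure D3:**
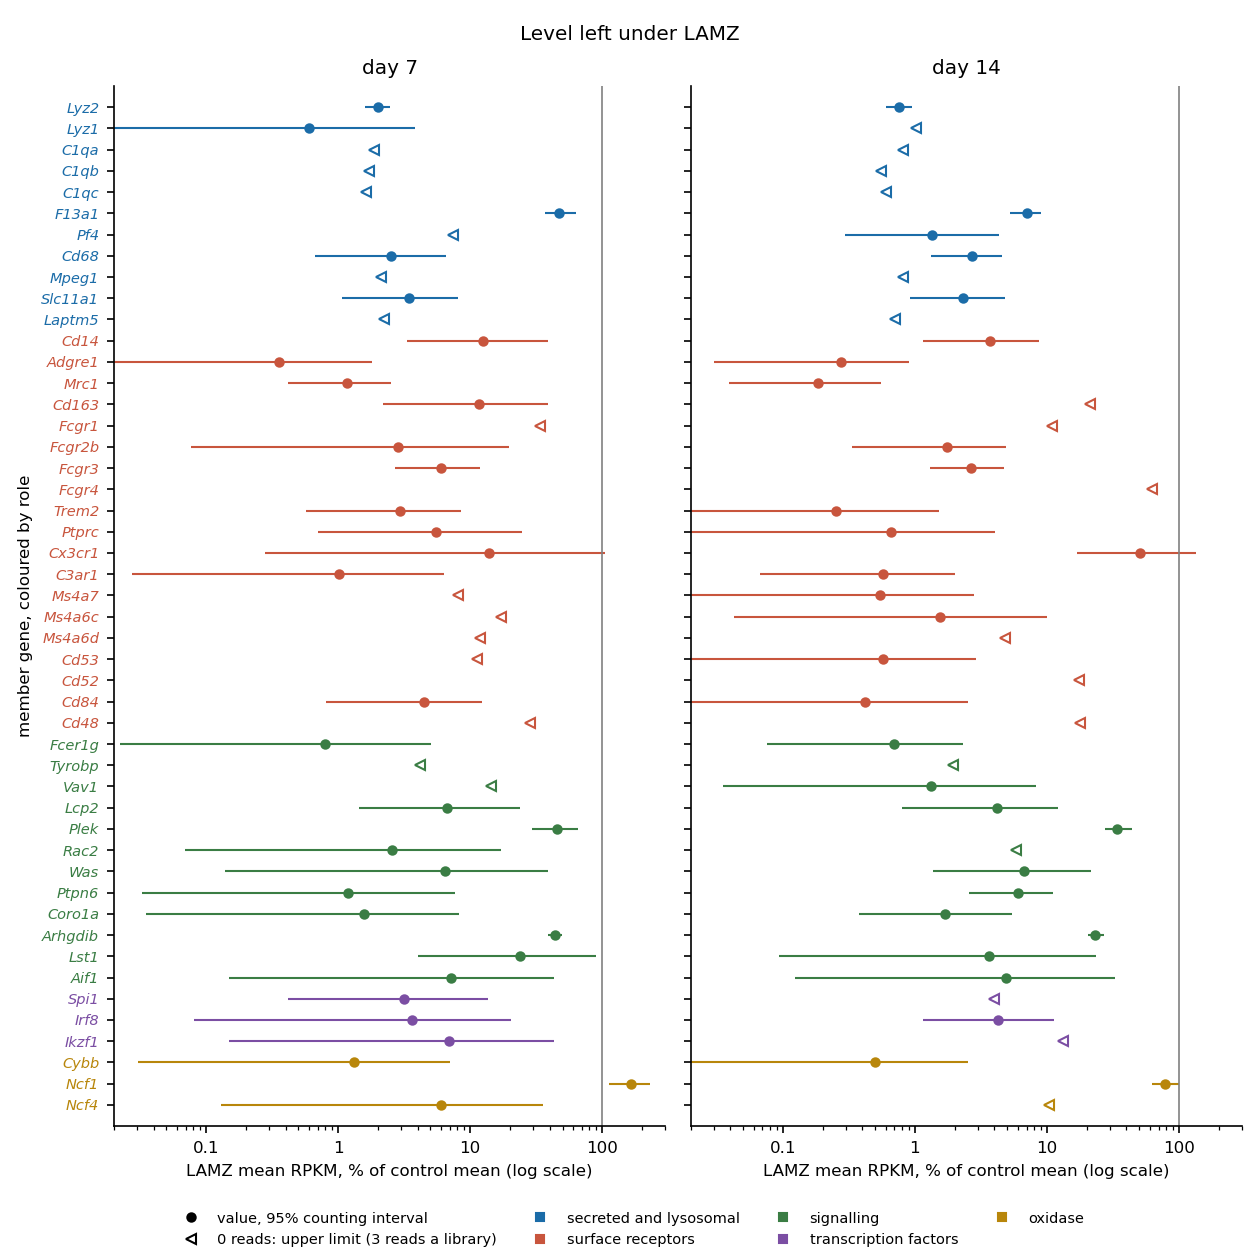
Mean RPKM under LAMZ as a percent of the control mean for each of the 48 genes at day 7 and day 14 (log axis), with 95% counting intervals, cut at the left edge where they run on, open triangles for the upper limit where no read was counted under LAMZ, and no mark for Fcgr4 and Cd52 at day 7. Most genes sit below 10%, and F13a1, Plek, Arhgdib and Ncf1 have the highest values at day 7, followed by the sparsely counted Lst1 at 23.7% (4.05% to 89.0%), whose interval overlaps theirs. At day 14 Plek, Arhgdib, Ncf1 and the sparsely counted Cx3cr1 have the highest values.

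Over the whole list, 16 genes had no read in either LAMZ library at day 7 and 17 at day 14, and 11 had none in all 4 LAMZ libraries (C1qa, C1qb, C1qc, Mpeg1, Laptm5, Fcgr1, Fcgr4, Ms4a6d, Cd52, Cd48 and Tyrobp). A further 22 genes at day 7 and 19 at day 14 had 1 to 3 reads over both LAMZ libraries. More than 20 reads on both days were counted for 5 genes, Lyz2, F13a1, Plek, Arhgdib and Ncf1. Among genes with any read under LAMZ, the median residue was 4.04% over 32 genes at day 7 and 1.75% over 31 genes at day 14. Intervals and floors cover counting error only, since PCR reads are not independent molecules.

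In control culture, 42 of the 48 genes had both day 14 libraries above both day 7 libraries, and 6 overlapped (Cd163, Cx3cr1, Cd48, Lcp2, Arhgdib and Aif1). For the 38 genes with at least 20 reads in day 7 control culture, the ratio of day 14 to day 7 ran from 0.936 to 4.93 with a median of 2.41 and quartiles of 2.04 and 2.74, and it was above 1 in 36. The counting interval held the median ratio in 25 of the 38. It lay above the median for Lyz1 (3.45), C1qb (2.76), F13a1 (3.91), Cd14 (3.97), Fcgr2b (4.93), Ptprc (3.73) and C3ar1 (3.46), and below it for Lyz2 (2.06), C1qa (2.02), Slc11a1 (1.78), Cd163 (0.936), Vav1 (1.47) and Arhgdib (0.988, 0.889 to 1.08). These intervals leave out the spread between libraries of a group, which was wider than counting error. Over all genes with enough reads, the mean chi-square per gene between the 2 control libraries was 5.9 at day 7 and 4.67 at day 14. The places above and below the median are therefore a description. By role, the median ratio was 2.35 for secreted genes, 2.61 for receptors, 1.89 for signalling genes, 2.49 for transcription factors and 2.37 for oxidase subunits.

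**Figure D4:**
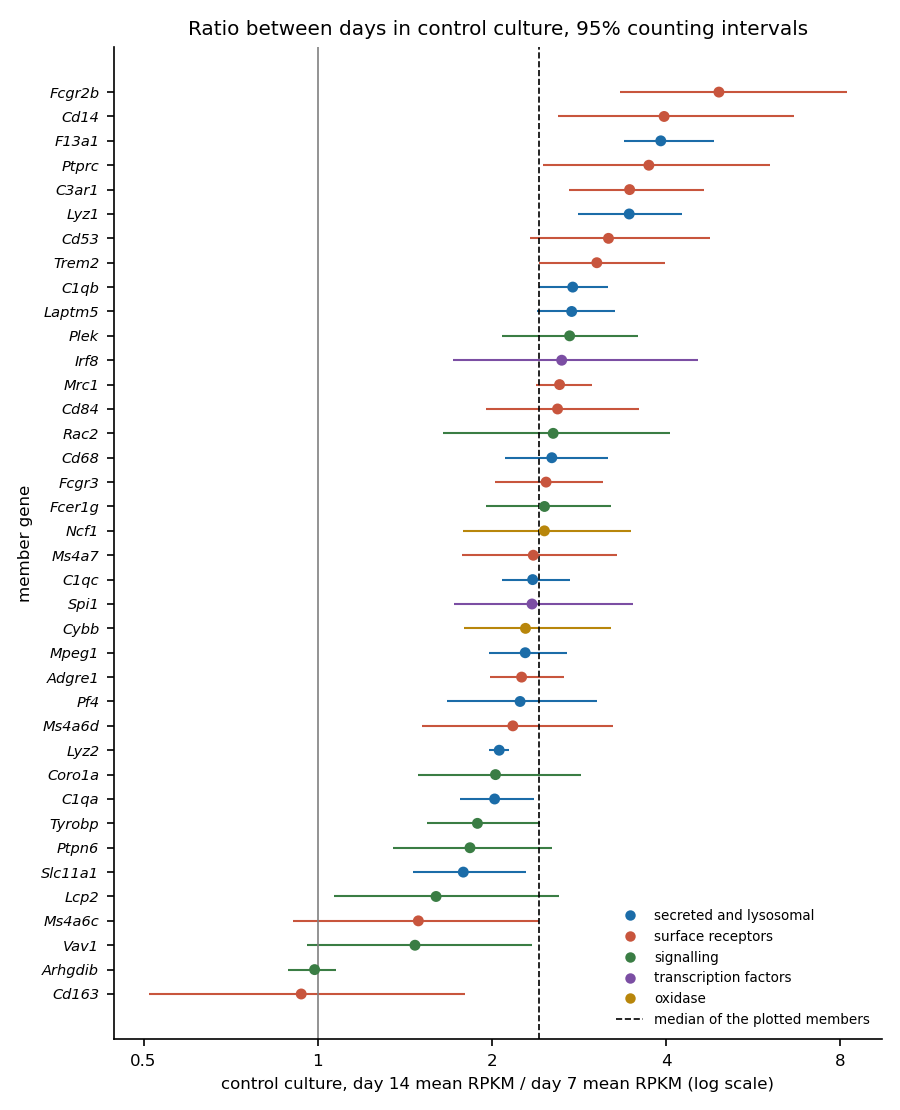
Ratio of the day 14 to the day 7 control mean for the 38 genes with at least 20 reads at day 7 (log axis), with 95% counting intervals and a dashed line at the median of 2.41. Most intervals cross the line, Fcgr2b lies farthest above it, and Arhgdib and Cd163 lie near 1.

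The replicates of control culture differed in the same sense over most of the 48 genes. At day 7, replicate 2 was higher than replicate 1 in 38 genes (79.2%), with a median ratio of 1.38, whereas it was higher in 41.4% of all tested genes. At day 14, replicate 1 was higher in 38 genes (79.2%), with a median ratio of replicate 2 to replicate 1 of 0.817, whereas it was higher in 33.6% of all tested genes. The genes thus varied together between libraries of one group, and they are not independent measurements.

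A fit over all genes places these values beside the rest of the transcriptome. Of the 48 genes, 43 reached an RPKM of 1 in 2 libraries and were fitted in limma among 12514 genes (Cd163, Fcgr4, Cx3cr1, Irf8 and Ikzf1 were not), most of them through the control libraries alone, where they were high. At an adjusted p under 0.05, 32 of the 43 were lower with LAMZ at day 7, beside 8.49% of all tested genes, and 41 were lower at day 14, beside 16.0%, with Aif1 and Ncf1 not called. Both LAMZ libraries lay below both control libraries in 41 of the 43 at day 7, beside 35.9% of all tested genes, and in all 43 at day 14, beside 44.2%. From day 7 to day 14 in control culture, 25 were higher, beside 2.46% of all tested genes, and 39 had day 14 libraries above day 7 libraries, beside 21.0%. Since the genes were chosen on these contrasts, nothing is read from the counts.

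The median difference of the 43 genes on the log2(RPKM + 1) scale, which understates the change of low genes, was −1.55 at day 7, −2.62 at day 14 and 0.97 between control days, beside medians over all tested genes of −0.08, −0.15 and −0.05. The count of 25 between control days rested on single libraries, and was 1 without day 14 control replicate 1, 6 without day 7 control replicate 1, 8 without day 14 control replicate 2, and 15 without either of the day 7 LAMZ libraries, which share the estimate of the spread. The median of the genes stayed between 0.83 and 1.19 in those fits.

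The split of calls over all genes depended on the scaling between libraries. At day 7, 544 genes were higher and 1063 lower, at day 14, 871 and 2007. With each library scaled to the same sum the splits were 312 and 3280, and 473 and 5323, with the median of all genes at −0.31 and −0.43 on the log2 scale, and with medians centred they were 857 and 745, and 1608 and 1249. Under each of these scalings every one of the 48 genes that was called was lower with LAMZ.

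Within LAMZ culture, the change from day 7 to day 14 was not used to choose the genes and was tested. Of the 43 genes, 1 was called, Arhgdib, which fell by 0.89 on the log2 scale (SE 0.139, limma adjusted p = 0.00641), beside 9.26% of all tested genes called lower. Both day 14 LAMZ libraries of Arhgdib lay below both day 7 LAMZ libraries. The call was lost without day 7 LAMZ replicate 2 and without day 14 LAMZ replicate 2, with a limma adjusted p of up to 0.0621. Without day 14 LAMZ replicate 2, Pf4 was called instead, with a log2 difference of 0.78 that rests on 3 reads in the remaining library. Pf4 reached the level for the test through control libraries alone, so this value is a description. For most of the genes this comparison says little, since most reached that level through control libraries alone. In addition, 11 of the 48 had no read in any LAMZ library and few reads were behind most others. Over all 48 genes, the summed level at day 14 was 0.704 of that at day 7 under LAMZ, and without Lyz2 and Arhgdib it was 1.15.

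The difference between the LAMZ effect at day 14 and at day 7 is given as values, since it is built from the contrasts that chose the genes. It was below 0 in all 43 fitted genes, with a median of −0.97, beside −0.07 over all tested genes. C1qb (−1.44) and C1qc (−1.20) were called, beside 0.312% of all tested genes called lower, and neither was called without any 1 of the 8 libraries. In both, the LAMZ libraries were at 0 on both days, so the difference equals the increase in control culture with the sign turned.

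Genes of the growth factor axis, which were not among the 48, were compared with control. This list too was chosen with earlier results of these data known, so its differences and calls are a description. Csf1, the growth factor that macrophages need, was at 71.7 and 63.6 RPKM in day 7 control, 27.7 and 30.4 in day 7 LAMZ, 76.6 and 91.1 in day 14 control and 55.3 and 55.9 in day 14 LAMZ libraries. It fell at day 7 by 1.19 on the log2 scale (SE 0.129) and at day 14 by 0.58 (SE 0.129). Under LAMZ it rose from day 7 to day 14 by 0.91 (SE 0.129). Each was called in the fit over all genes, beside 8.49% and 16.0% of all tested genes called lower and 5.1% called higher. The day 14 call was lost without day 14 control replicate 2 or either day 14 LAMZ library.

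Il34, the other ligand, fell by 1.58 at day 7 (SE 0.172) and by 2.12 at day 14. Its levels went from 14.5 and 15.0 to 3.47 and 5.19 RPKM and from 18.6 and 21.9 to 3.59 and 4.18. Csf1r, their receptor, fell on both days, with log2 differences of −2.75 at day 7 (SE 0.133) and −3.69 at day 14. It went from 7.33 and 9.04 to 0.336 and 0.393 RPKM and from 16.8 and 17.3 to 0.421 and 0.377. Csf1r reached the level for the test through control libraries alone, and its differences, like those of the whole list, are a description. Csf1r thus kept a low level in all 4 LAMZ libraries, and Csf1 and Il34 kept more of theirs. Csf2ra, a chain of the GM-CSF receptor, fell by 1.03 at day 7 and by 0.93 at day 14. The call was lost on each day without control replicate 1 or LAMZ replicate 2 of that day. Csf2 was listed at 0 in every library, and Flt3, Csf2rb and Csf3r were below the level for the test.

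**Figure D5:**
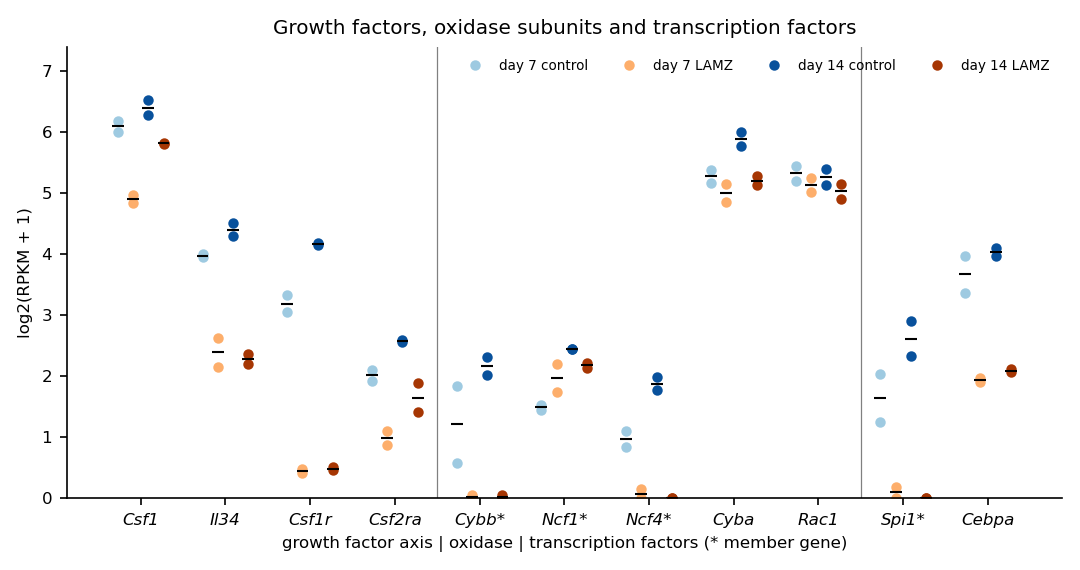
Levels as log2(RPKM + 1) of growth factor axis genes, oxidase genes and transcription factors in the 8 libraries, with genes of the 48 marked by an asterisk. Csf1r, Cybb, Ncf4 and Spi1 drop to near 0 under LAMZ, whereas Csf1, Cyba and Rac1 stay well above it. Ncf1 under LAMZ lies above its day 7 and below its day 14 control values.

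The oxidase needs partners that are not restricted to leukocytes. These were also listed with earlier results of these data known, so their differences are a description. Cyba, the p22phox subunit, was at 40.8 and 35.0 RPKM in day 7 control and 28.0 and 34.7 in day 7 LAMZ libraries. This difference of −0.27 was not called. At day 14 Cyba fell by 0.69, a call lost without day 14 control replicate 1 or day 14 LAMZ replicate 2. Rac1, the widely expressed GTPase, differed by −0.19 and −0.23 and was called on neither day. Nox4, an oxidase of non-phagocytic cells, fell at day 14 by 0.93, a call lost without any 1 of the 4 day 14 libraries.

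Other macrophage receptors were taken from a list that was also chosen with earlier results known, and genes such as Fcrls and Clec4n, at 0 in all 4 LAMZ libraries, reached the level for the test through control libraries alone. Their counts and differences are therefore a description. Of 30 listed and 28 in the tables, 16 were tested, and of these 10 fell at day 7 and 14 at day 14, beside 8.49% and 16.0% of all tested genes, and 6 rose between control days, beside 2.46%. On the log2 scale, the differences at day 7 and day 14 were −2.90 and −3.64 for Clec4d, a C-type lectin, and −2.41 and −4.21 for Fcrls, an Fc receptor-like protein. They were −2.65 and −3.28 for Folr2, a folate receptor of resident macrophages, and −2.20 and −3.24 for Itgb2, the shared β2 integrin chain. Mertk, a receptor for apoptotic cells, was at 4.22 to 5.61 RPKM in all 8 libraries. Its differences of 0.09 and −0.03 were not called, and their sign turned between scalings.

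Partners of receptor signalling were also listed with earlier results of these data known, so their counts and differences are a description. Of 15 tested, 6 fell at day 7 and 14 at day 14, beside 8.49% and 16.0% of all tested genes. Between control days 4 rose, beside 2.46%. Calls between control days over all lists other than the 48 genes numbered 12, and 1 without day 14 control replicate 1. Partners that fell at day 7 and day 14 included Lcp1, an actin bundler (−1.89 and −2.91), and Sirpa, the receptor for CD47 (−1.86 and −2.37). Nckap1l, a leukocyte actin regulator, fell as well (−1.62 and −2.67).

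Other myeloid transcription factors did not move in one direction. Their list was also chosen with earlier results of these data known, so its counts and differences are a description. Of 10 tested, 2 fell and 2 rose at day 7, beside 8.49% and 4.35% of all tested genes. At day 14, 3 fell and 2 rose, beside 16.0% and 6.96%. Cebpa, a factor of myeloid and fat cells, fell by 1.73 at day 7 and by 1.94 at day 14. Its levels went from 14.8 and 9.31 to 2.94 and 2.77 RPKM and from 16.2 and 14.7 to 3.19 and 3.34. Runx3 rose by 1.02 and 0.99. Klf4 rose by 1.01 and 0.72. The day 7 call of Klf4 was lost without day 7 LAMZ replicate 1, and its day 14 call without any 1 of the 4 day 14 libraries and with the same sum.

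Several markers of other cells moved beside the 48 genes. These lists were also chosen with earlier results of these data known, so their counts and differences are a description. Of 8 osteoblast markers, 5 rose with LAMZ on each day, beside 4.35% and 6.96% of all tested genes, Spp1, Alpl, Ibsp and Sp7 on both days, Runx2 at day 7 and Col1a1 at day 14, whose sign turned with quantile scaling. Of 5 tested osteoclast markers, Itgb3 rose on both days (0.87 and 1.06) and Mmp9 at day 14 (1.48), and Calcr was at or near 0 in every library. Tek, an endothelial receptor, fell by 1.14 and 0.91. Its day 7 call was lost without control replicate 1 or either LAMZ library of day 7, and its day 14 call without any 1 of the 4 day 14 libraries. Ighm, the single B cell marker tested, rose at day 14 by 1.01, a call lost without 5 of the 8 libraries in turn and with the same sum. The part of these in the levels of the 48 genes was not tested.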

How the data were processed

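RNA sequencing of 8 libraries in 4 groups of 2 was analysed. The authors sequenced on an Ion Proton, assigned reads with CLC Genomics Workbench (version not given in the sources used here) and deposited RPKM per gene symbol. The submitters' processing notes name mm10. No scaling between libraries is stated. The column header of the day 7 LAMZ replicate 1 table has the letter V where the other headers name LAMZ, and its sample was taken from the GEO record. In each table, 4 entries with repeated date-like symbols were dropped (51826 to 51822).

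Mapped reads were recovered as the depth at which low RPKM values become whole reads (tolerance 0.05), which held for 94.0% to 96.2% of the values checked. Reads of 5 genes (F13a1, Cd14, Adgre1, Ptprc and Rac2) needed a rescaled gene length. Lengths and positions are from GENCODE on GRCm38, and upstream sequences from RefSeq (GRCm38.p6), with 38 of 48 genes matched. Ratios of reads have exact 95% binomial intervals, and a group at 0 was set to a floor of 3 reads per library. Genes that reached an RPKM of 1 in 2 or more libraries (12514) were compared on the log2 scale after adding a pseudocount of 1. The fit used limma 3.58.1 under R 4.3.3 with a mean-variance trend and a single model of the 4 groups, which left 4 degrees of freedom for the spread and held no covariate. Other steps used Python 3.11.15. P-values were adjusted by Benjamini-Hochberg, with a threshold of 0.05. An exact permutation test of 2 against 2 libraries cannot go below 0.333 and was not used.

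The 48 genes and all lists were chosen with earlier results of these data known. Values per library are given for the 4 genes with the highest mean in each role. They are also given for the 4 with the most and the 4 with the least left under LAMZ at day 14, among genes with a control mean RPKM of at least 1 at day 14. The 3 with the largest and the 3 with the smallest control ratio of day 14 to day 7 were added, among genes with a control mean RPKM of at least 1 at day 7. From other lists, called genes were named, at most 4 per list and contrast, and genes of the growth factor axis and oxidase partners in any case. Mertk was named after its values were seen. Some genes of the lists are not reported here. Alternatives were other pseudocounts, filters and scalings, a replicate block, the compared groups alone, no trend and leaving out each library. Sums without the highest genes were chosen after seeing the data.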

Additional observations from a re-analysis of the deposited data

Results flagged for a closer look

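The LAMZ effect differed between day 14 and day 7 for a few genes. On the log2(RPKM + 1) scale the difference was −1.44 for C1qb and −1.20 for C1qc, which are given as values since the genes were chosen on these contrasts. Among macrophage receptors outside the 48 genes, the difference was −1.89 for Clec4n and −1.80 for Fcrls. Clec4n was at 1.49 and 2.64 RPKM in day 7 control and 10.6 and 9.81 in day 14 control libraries. Both genes were at 0 in all 4 LAMZ libraries, so the difference equals the increase in control culture with the sign turned. Both were called in limma, but their list was chosen with earlier results known, so the values are a description. The call for Clec4n was lost in all 8 fits without 1 library, and that for Fcrls in 7 of 8.

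In a pair of the listed genes, both LAMZ libraries lay on one side of control at day 7 and on the other at day 14. Such turns were not counted over all tested genes, so nothing is read from their number. At day 14 alone, both LAMZ libraries lay below control in 44.2% of all tested genes. Ncf1 differed by 0.48 at day 7 and by −0.27 at day 14, and this difference between the days was not tested, as the gene was chosen on these contrasts. Runx1, a myeloid and osteochondral transcription factor, differed by 0.45 at day 7 and by −0.33 at day 14, from 2.78 and 2.93 RPKM in control to 4.12 and 4.43 in LAMZ libraries and from 4.38 and 4.41 to 3.0 and 3.64. For Runx1, the difference between the days was not called in limma.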

How the results depend on the processing

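With LAMZ against control, every one of the 48 genes that was called was lower in every fit, and the counts of those called stayed within 1.5 times. Leaving out 1 library moved them between 23 and 33 at day 7 and 37 and 41 at day 14. Single log2 differences were followed under alternatives for those of the 48 genes picked by the naming rule. Selected genes of other lists were followed as well, mostly where they were called. Of these values, 1959 kept their direction and side of the threshold, 180 lost a call, 31 gained one and 15 changed sign. The sign of the called value of Col1a1 at day 14 turned with quantile scaling (−0.22), and the others that turned were not called. Between control days these were Arhgdib (0.23 with the same sum, 0.0091 with quantile scaling, −0.19 to 0.14 without 1 library), Aif1 (0.0091 with a pseudocount of 5, 0.13 with the same sum, 0.020 with medians centred, −0.39 to 0.38 without 1 library) and Cd48 (−0.022 to 0.77 without 1 library). With LAMZ this was Mertk (−0.16 at day 7 with the same sum, and at day 14 0.16 with medians centred or quantile scaling and −0.17 to 0.12 without 1 library). The cause of the changes here was not tested.

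With a pseudocount of 0.1 or 5, the median log2 change of the genes was −4.12 or −0.52 at day 7, −5.01 or −1.23 at day 14, 1.26 or 0.53 between control days and −1.22 or −0.53 for the difference between days. A mean RPKM of at least 1 gave −1.93 and −2.98 with LAMZ, no filter −2.41 at day 14, and medians centred −2.43 at day 14. Libraries scaled to the same sum gave −2.88 at day 14, 1.20 between control days and −1.17 for the difference. Without 1 library the medians ran from −1.81 to −1.33, from −2.91 to −2.52, from 0.83 to 1.19, and from −1.16 to −0.83, and stayed at 0.00 within LAMZ.

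The 25 calls between control days were 8 with a pseudocount of 0.1, 7 with no filter, 0 with only the compared groups fitted (limma, with 36 at an unadjusted p under 0.05 in the 4-group fit) and 1 to 20 without 1 library. Those of the other lists, 12, were 4, 6 and 0, 27 with the same sum, and 1 to 14 without 1 library. Within LAMZ culture the 13 calls of the other lists were 6 with no filter and 3 to 14 without 1 library, and the 1 of the 48 genes, Arhgdib, was 0 without day 7 LAMZ replicate 2, while without day 14 LAMZ replicate 2 Pf4 was called in its place. Their calls with LAMZ, 32 and 49, were 25 to 30 and 32 to 49 without 1 library (32 without day 14 LAMZ replicate 2).

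For the difference between days, the 2 calls of the 48 genes were 0 with a pseudocount of 0.1 or no filter, 10 with a pseudocount of 5, 5 with a mean RPKM of at least 1, 6 with the same sum, 1 with medians centred, with quantile scaling or with no trend, and 0 without any 1 library. The 2 calls of the other lists were 0 with a pseudocount of 0.1 or no filter, 6 with a pseudocount of 5, 1 with no trend, and 0 to 1 without 1 library. This difference could not be fitted with only the compared groups.

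The replicate numbers did not pair the libraries (correlation of deviations of −0.0166 at day 7 and 0.0158 at day 14). With the replicate number as a block, calls over all genes were 1376 and 2700 with LAMZ, 432 between control days, 1548 within LAMZ culture and 17 for the difference between days, where the 48 genes had 0 and the other lists 1.

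The summed LAMZ level as a ratio to control was 0.0514 at day 7 and 0.0165 at day 14 with the same sum and 0.0243 at day 14 with medians centred. Leaving out Lyz2 gave 0.113 and 0.0358, Lyz2 and Arhgdib 0.0368 and 0.0174, and F13a1, Plek and Ncf1 as well 0.0126 and 0.00667. Between control days the ratio was 2.51 with the same sum. Within LAMZ culture it was 0.808, 0.755 and 0.763 with the same sum, medians centred and quantile scaling, and above 1 without Lyz2 and Arhgdib (1.15) and without all 5 genes (1.28). Without 1 library these ratios ran from 0.0567 to 0.0731, 0.0203 to 0.0223, 1.87 to 2.41 and 0.670 to 0.737. At 3463536 to 5832100 mapped reads, residues of low genes rest on 0 to 3 reads.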
